A study of Arabidopsis thaliana with 18 samples.

Results

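The Arabidopsis thaliana transcripts described here had a higher level on norflurazon in each of 3 genotypes, the mutants gun1-9 and gun5 and the wild type Col-0. Members were chosen from the array values themselves. A probe set, a group of short probes against 1 transcript or several related ones, was taken when its group mean of log2(intensity + 1) was higher by at least 1.5 on norflurazon than without it in all 3 genotypes. Probe sets of organelle transcripts, control probe sets, 5 genes named in the rule (AT2G21640, AT5G51440, AT2G41730, ICL and CCS) and 5 gene families were left out. The rule found 89 of 22746 probe sets. Of 94 past the threshold, the 5 named genes were removed, and the organelle and family exclusions removed 0. The family exclusion acts on gene symbols, so it could not be applied to the 50 members without a gene name.

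Seedlings were 5 days old and had been grown in continuous light on medium with sucrose, with or without 5 uM norflurazon. The 6 groups, with 3 arrays each and 18 in all, were treated and untreated gun1-9, treated and untreated gun5, and treated and untreated Col-0. The series design calls the arrays of a group biological replicates, and the labels do not say whether they came from separate sowings, so that p-values may measure technical spread. The labels give gun1-9 by allele name and gun5 without an allele number. GUN1 encodes a plastid protein with pentatricopeptide repeats. GUN5 encodes the large H subunit of the chelatase that puts magnesium into the chlorophyll precursor.

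Norflurazon blocks an early step of carotenoid synthesis, and light then damages the unprotected plastids. Damaged plastids send signals to the nucleus, known as retrograde signals, which switch off nuclear photosynthesis genes in the wild type and much less so in gun mutants. Seedlings without working plastids also lose photosynthetic sugar and meet oxidative stress, and plants are known to raise detoxification, starvation and mitochondrial stress genes under such conditions. Some of the mitochondrial stress genes are controlled by ANAC013 and ANAC017, NAC transcription factors held at the endoplasmic reticulum membrane.

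Median intensity per array lay between 14.7 and 16.3, and arrays of a group correlated with r of at least 0.992 across probe sets. The number of arrays limits the precision of each group mean. Since these are whole seedlings, more cells of a type and more RNA per cell cannot be told apart. Of the 15 seed and embryo markers on the list, 1 (ICL, isocitrate lyase of the glyoxylate cycle) had a probe set of its own. ICL read 266 to 452 in treated and 4.16 to 25.1 in untreated gun1-9, 134 to 357 in treated and 4.47 to 14.8 in untreated gun5, and 2132 to 2493 in treated and 80.8 to 478 in untreated Col-0. Of 8 root markers, EXPA7, an expansin of root hair cells, was measured, with a log2 change of 1.36 in gun1-9, 0.65 in gun5 and 1.02 in Col-0. Neither marker was at 0. ICL, itself among the probe sets past the threshold, was higher on norflurazon on every array of each genotype, and EXPA7 was called higher in gun1-9 and Col-0 (adjusted p of 0.00519 and 0.0288 in limma). Their part in the results below was not tested.

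The median log2 change of the 89 members was 2.52 in gun1-9, 2.15 in gun5 and 2.30 in Col-0, where the median of all 22746 probe sets was 0.02, 0.04 and 0.03. Member changes ran between 1.56 and 6.58 in gun1-9, 1.51 and 5.55 in gun5, and 1.51 and 5.87 in Col-0. These changes chose the members and are given as a description. A change of at least 1.5 was reached by 1.54% of all probe sets in gun1-9, 0.932% in gun5 and 1.18% in Col-0. In each genotype, all 89 had their 3 treated arrays above their 3 untreated arrays, as had 25.5% of all probe sets in gun1-9, 23.0% in gun5, 29.2% in Col-0 and 11.6% in all 3. At least a change of 2 in all genotypes was seen for 34 members, of 3 for 10 members and of 4 for 4 members. The largest change was in gun1-9 for 43 members, in gun5 for 20 and in Col-0 for 26. Within a member the 3 changes lay between 0.04 and 2.95 apart, with a median of 0.75, and for 28 members they lay within 0.5.

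Near the threshold, the smallest changes of the 5 members just inside were between 1.51 (probe set 248932_at and AT3G49790) and 1.53. The 5 just outside had 1.48 to 1.49, among them AT1G53030, a copper chaperone of the COX17 family, with 1.49 in gun5 and 2.16 in Col-0. AT2G05540 was the other named one outside, with 2.46 in gun5 and 1.48 in Col-0. With any 1 array left out, 67 of the 89 members kept a change of at least 1.5 in every genotype, and the lowest change was 1.17.

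A single gene is named for 39 of the 89 members and no gene for the other 50, in the platform annotation used here. Of the 39 genes, 38 are protein coding and 1, AT1G20390, is listed as a pseudogene. Only 3 carry a symbol (GAT1_2.1, MCCA and ATL8). By their known roles they were sorted, after the values had been seen, into 7 genes of oxygenases, peroxidases and redox proteins, 5 of metabolic enzymes and related proteins, 2 of transport, 6 of protein synthesis, folding and turnover, 6 of cell wall and secreted proteins and 5 of regulators. For 8 no role is given. Among these genes 3 pairs are next neighbours on their chromosome in the order of protein-coding genes of assembly TAIR10.1, namely AT1G72060 with AT1G72070, AT4G15680 with AT4G15690 and AT5G64110 with AT5G64120.

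**Figure D1:**
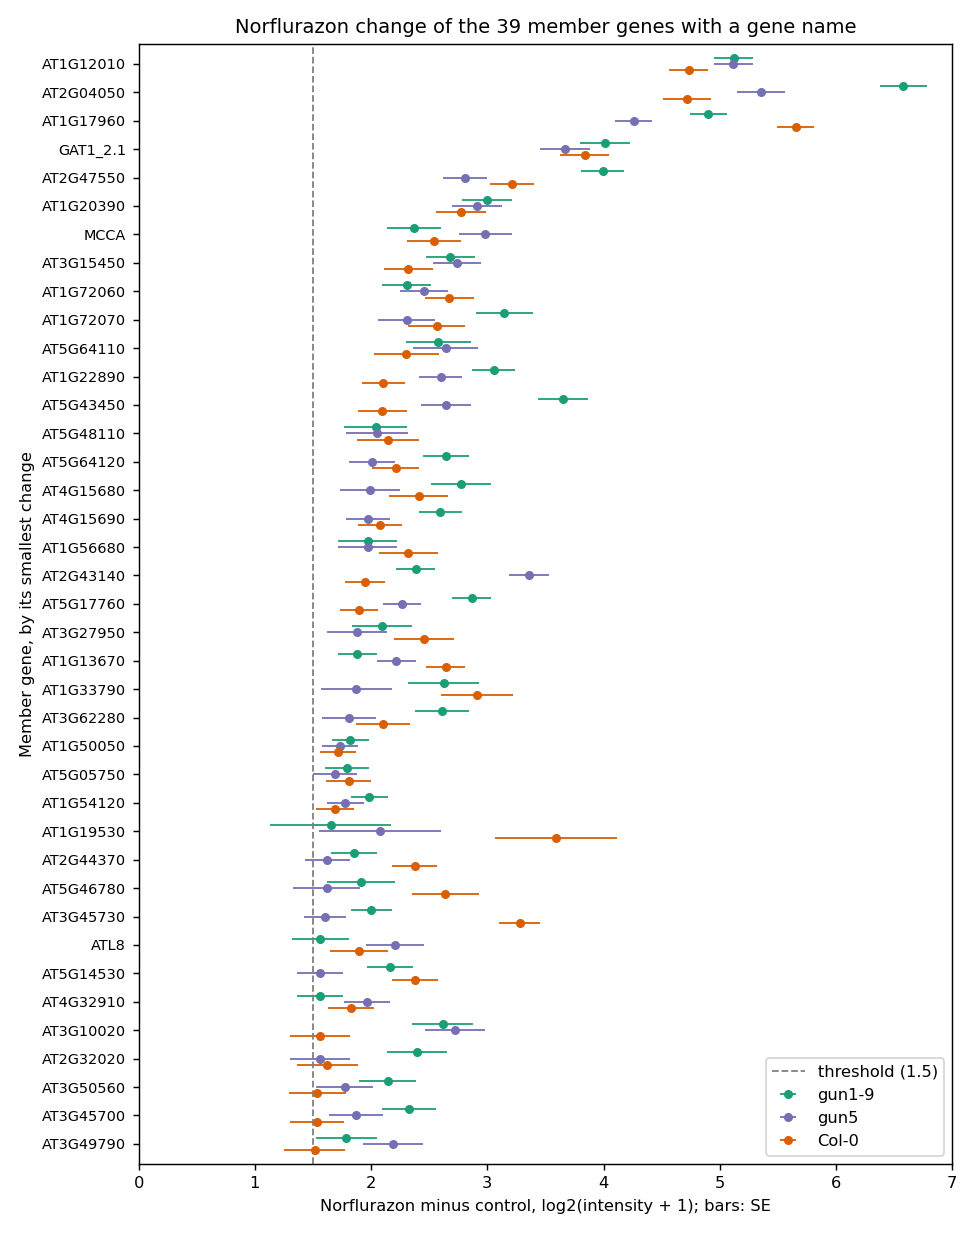
Norflurazon change (norflurazon minus control, log2(intensity + 1), with the standard error of the limma fit) of the 39 named members in gun1-9, gun5 and Col-0, ordered by the smallest of the 3 changes. All points lie to the right of the threshold of 1.5 by the choice of the members, from 6.58 for AT2G04050 in gun1-9 to 1.51 for AT3G49790 in Col-0.

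Among the oxygenases and redox proteins, AT1G12010 had the largest smallest-of-3 change of all members. It encodes a dioxygenase of the ACC oxidase family, whose members make ethylene. Intensities of AT1G12010 were 367, 273 and 254 in treated gun1-9, against 7.88, 7.25 and 7.34 in untreated gun1-9. In gun5 they were 279, 301 and 354 on norflurazon, against 8.09, 7.32 and 8.48 without it. The Col-0 arrays gave 199, 242 and 319 on norflurazon, against 7.78, 7.35 and 10.3 without it. The lowest of the treated arrays, 199, was a Col-0 array, and the highest untreated one, 10.3, was as well. Its log2 changes were 5.12 in gun1-9, 5.12 in gun5 and 4.73 in Col-0, and the treated groups overlapped each other. The difference of response was not called between gun1-9 and Col-0 (0.39 ± 0.24 SE, 95% interval -0.11 to 0.89), nor between gun5 and Col-0 (0.38, interval -0.11 to 0.88).

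AT5G64120 (PRX71) and its neighbour AT5G64110 encode peroxidases of the secreted class, which work in the cell wall. In gun1-9, AT5G64120 read 3012, 2553 and 2259 on norflurazon, against 525, 375 and 359.7 without it. Treated gun5 had 1808, 2289 and 3083, against 487, 566 and 709 in untreated gun5. Treated Col-0 had 2045, 2873 and 2557, against 465, 583 and 556 in untreated Col-0. The 3 treated groups overlapped one another, as did the untreated ones. The log2 changes of AT5G64120 were 2.64 in gun1-9, 2.01 in gun5 and 2.21 in Col-0. For AT5G64110, which read 25.6 to 74.9 in treated and 5.16 to 10.9 in untreated seedlings, they were 2.58 in gun1-9, 2.64 in gun5 and 2.30 in Col-0. No difference of response between genotypes was called for either peroxidase gene.

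The neighbours AT4G15680 and AT4G15690 encode glutaredoxins of the plant-specific CC type, small redox proteins. The treated gun1-9 arrays gave 328, 234 and 237 for AT4G15680, against 56.3, 25.5 and 37.1 on the untreated ones. The gun5 values were 370.3, 335 and 203 with norflurazon, against 60.5, 93.5 and 68.6 without. Col-0 seedlings had 314, 339.9 and 280.3 when treated, against 49.00, 66.1 and 59.2 when untreated. The lowest treated array of AT4G15680, a gun5 array, was above the highest untreated one, also of gun5. The log2 changes were 2.77 in gun1-9, 1.99 in gun5 and 2.41 in Col-0 for AT4G15680 and 2.60 in gun1-9, 1.97 in gun5 and 2.08 in Col-0 for AT4G15690. Probes of one such gene may also bind transcripts of its close copies, which was not tested. Their differences between gun1-9 and Col-0 were 0.36 (95% interval -0.41 to 1.13) and 0.52 (-0.04 to 1.08), without a call. AT3G50560, which encodes a dehydrogenase-like protein with a nucleotide-binding fold, had log2 changes of 2.15 in gun1-9, 1.77 in gun5 and 1.54 in Col-0.

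The 5 genes of metabolic enzymes and related proteins included MCCA, the biotin-bearing subunit of the mitochondrial enzyme methylcrotonyl-CoA carboxylase, which breaks down leucine. On norflurazon, MCCA had intensities of 310.3, 347 and 324 in gun1-9, against 60.6, 41.3 and 96.2 in its untreated seedlings. For gun5, 341, 510.4 and 490.1 on treated arrays stood against 50.9, 56.9 and 56.7 on untreated arrays. The Col-0 arrays gave 441, 420.3 and 421 on norflurazon, against 89.3, 54.1 and 78.4 without it. The lowest treated array and the highest untreated one were both of gun1-9, and no groups of different treatment overlapped. The log2 changes of MCCA were 2.37 in gun1-9, 2.98 in gun5 and 2.54 in Col-0, and the difference from Col-0 was -0.17 (95% interval -0.87 to 0.52) in gun1-9 and 0.44 (-0.25 to 1.13) in gun5.

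GAT1_2.1 encodes a glutamine amidotransferase-like protein. Intensities of its probe set 260741_at were 76.9, 74.4 and 85.1 in treated gun1-9, against 3.72, 4.47 and 3.64 in untreated gun1-9. Treated gun5 had 68.0, 82.5 and 118, against 6.01, 4.72 and 7.31 in untreated gun5. Values of Col-0 were 62.0, 73.8 and 109 with norflurazon, against 4.95, 3.45 and 5.69 without. Groups of the 3 genotypes overlapped on norflurazon, and the log2 changes were 4.01 in gun1-9, 3.67 in gun5 and 3.84 in Col-0. A second probe set of GAT1_2.1, 260743_at, read 2.61 to 4.0 over all 18 arrays and had changes of 0.10, 0.20 and 0.01. The 2 probe sets disagree. Here a group mean is called dim below a log2 of 2.26, the mean over arrays of the first quartile of all probe sets, and all 6 group means of 260743_at were dim. Of the 89 members, 8 had a dim untreated mean in at least 1 genotype, and no treated mean was dim. GAT1_2.1 is the only one of the 39 named members with a second probe set named here.

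AT3G15450 encodes a protein of the aluminium-induced family with YGL and LRDR motifs, related to glutamine amidotransferases and known from sugar-starved plants. In gun1-9, AT3G15450 read 1754, 1669 and 1412 on norflurazon, against 202, 223 and 344 without it. The gun5 values were 1906, 2285 and 1877 with norflurazon, against 249, 271 and 401 without. Col-0 seedlings had 2301, 2271 and 2138 when treated, against 465, 340.0 and 563 when untreated. Treated gun1-9 arrays were all below the treated Col-0 arrays, and the untreated groups overlapped. The log2 changes were 2.68 in gun1-9, 2.74 in gun5 and 2.32 in Col-0, with a difference from Col-0 of 0.36 (95% interval -0.26 to 0.98) in gun1-9 and 0.42 (-0.20 to 1.04) in gun5. The last pair of this group, AT2G32020, an acetyltransferase of the GNAT family, and AT5G48110, of the terpene synthase family, had smallest changes of 1.56 and 2.04.

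**Figure D2:**
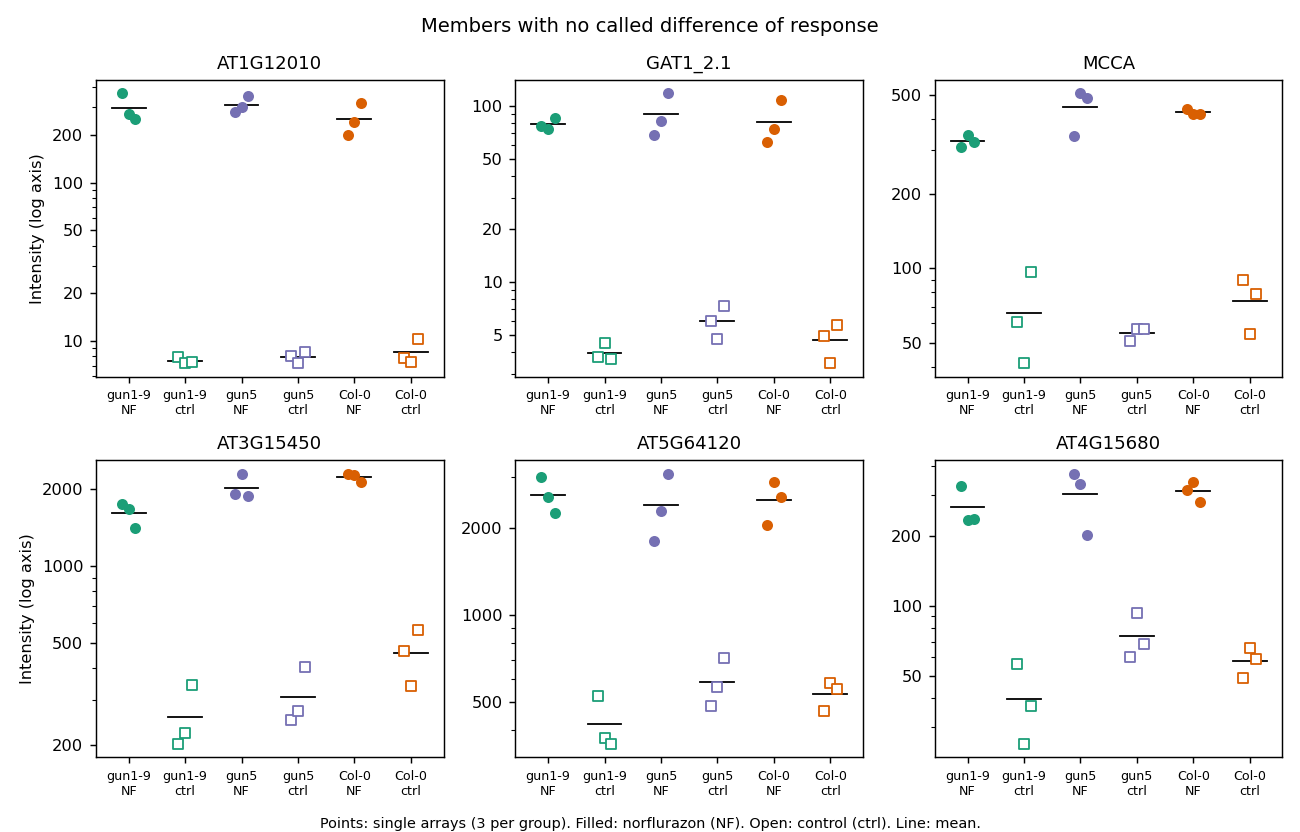
Intensity (log axis) on each array of 6 named members with no called difference of response, with norflurazon (filled) and control (open) side by side for gun1-9, gun5 and Col-0 and a line at each group mean. In each panel all treated arrays stand above all untreated ones, as for AT1G12010 with 199 to 367 against 7.25 to 10.3.

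Both transport genes encode membrane carriers. AT2G04050 belongs to the MATE family, whose members include exporters of toxic compounds. The treated gun1-9 arrays gave 512, 370.5 and 485 for AT2G04050, against 3.97, 3.50 and 3.74 on the untreated ones. For gun5, 262, 192 and 139 on treated arrays stood against 3.24, 5.29 and 2.88 on untreated arrays. Treated Col-0 had 122, 112 and 98.3, against 3.64, 3.40 and 2.70 in untreated Col-0. Untreated arrays read between 2.70 and 5.29, with group means below the dim level in every genotype. On norflurazon the order was gun1-9, gun5 and Col-0, with no overlap between these groups. Its log2 changes were 6.58 in gun1-9, 5.36 in gun5 and 4.72 in Col-0. AT3G45700, a carrier of the nitrate and peptide transporter family, had 2.33 in gun1-9, 1.87 in gun5 and 1.54 in Col-0.

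Of the 6 genes of protein synthesis, folding and turnover, AT1G17960 had the largest changes. It encodes a threonyl-tRNA synthetase, an enzyme that loads transfer RNA with threonine. On norflurazon, AT1G17960 had intensities of 225, 258 and 277 in gun1-9, against 6.27, 7.37 and 9.09 in its untreated seedlings. In gun5 they were 109, 142 and 155 on norflurazon, against 7.59, 5.26 and 5.52 without it. Values of Col-0 were 493, 552 and 523 with norflurazon, against 9.08, 11.2 and 8.10 without. Here treated Col-0 was the highest group, treated gun1-9 the next and treated gun5 the lowest, without overlap. The log2 changes of AT1G17960 were 4.90 in gun1-9, 4.26 in gun5 and 5.65 in Col-0. AT5G17760, an AAA-type ATPase, had 2.86 in gun1-9, 2.27 in gun5 and 1.90 in Col-0. AT1G72070 and AT5G05750, which encode DnaJ-domain co-chaperones, had smallest changes of 2.31 and 1.69, AT1G72060, a protease inhibitor, 2.31, and ATL8, a RING-type ubiquitin ligase, 1.56.

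Cell wall and secreted proteins were led by AT2G47550, which encodes a pectin methylesterase. Intensities of AT2G47550 were 214, 203 and 197 in treated gun1-9, against 12.5, 13.7 and 9.84 in untreated gun1-9. The gun5 values were 181, 118 and 109 with norflurazon, against 19.2, 17.9 and 17.0 without. The Col-0 arrays gave 228, 218 and 215 on norflurazon, against 31.3, 17.4 and 21.8 without it. The lowest treated array was in gun5 and the highest untreated one in Col-0. Its log2 changes were 3.99 in gun1-9, 2.81 in gun5 and 3.21 in Col-0. The others were AT1G56680, of the chitinase family, AT3G27950 and AT3G62280, GDSL-type lipases, AT1G50050, related to pathogenesis-related protein 1, and AT1G33790, a jacalin-like lectin, with log2 changes between 1.72 and 2.91 over all genotypes. Untreated group means of AT3G27950 and AT1G50050 were below the dim level in all 3 genotypes.

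Of the 5 regulators and interaction-domain proteins, AT2G43140 encodes a basic helix-loop-helix transcription factor. In gun1-9, AT2G43140 read 17.8, 18.3 and 17.7 on norflurazon, against 2.99, 2.16 and 2.80 without it. For gun5, 46.1, 50.3 and 55.3 on treated arrays stood against 4.17, 3.85 and 4.01 on untreated arrays. Treated Col-0 had 10.8, 22.5 and 13.3, against 3.08, 3.04 and 3.18 in untreated Col-0. Treated gun5 was the highest group and did not overlap treated gun1-9 or treated Col-0, which overlapped each other. The log2 changes were 2.38 in gun1-9, 3.36 in gun5 and 1.95 in Col-0, and untreated group means were below the dim level in gun1-9 and Col-0. AT5G46780, with a VQ motif, AT4G32910, the nucleoporin NUP85, AT5G14530, a WD40-repeat protein, and AT2G44370, with a C1 domain, had changes between 1.56 and 2.64.

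Of the 8 genes given no role, AT1G19530 had an uneven untreated Col-0 group. The treated gun1-9 arrays gave 192, 189 and 209 for AT1G19530, against 63.6, 74.5 and 49.97 on the untreated ones. In gun5 they were 268, 241 and 253 on norflurazon, against 49.8, 83.3 and 50.5 without it. Col-0 seedlings had 170.2, 320.0 and 474 when treated, against 86.2, 12.8 and 11.4 when untreated. The first Col-0 replicate was the highest untreated array and the lowest treated one. Its log2 change in Col-0 was 3.59, and 4.50 without that untreated array, while the changes were 1.65 in gun1-9 and 2.08 in gun5. Its gun1-9 response differed from the Col-0 response by -1.94 ± 0.74 SE (adjusted p = 0.0933 in limma), without a call. AT1G20390 and AT1G22890 had smallest changes of 2.77 and 2.10, and AT1G13670, AT1G54120, AT3G45730, AT3G10020 and AT3G49790 had 1.51 to 1.88.

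Whether the size of the response differed between genotypes was tested in limma as the difference of the log2 changes over all 22746 probe sets. A call was a Benjamini-Hochberg adjusted p under 0.05. The changes that chose the members enter these differences, and the untreated and treated levels compared below enter those changes. Shares of members called, set beside those of all probe sets, are therefore a description. Each member had to pass 1.5 in every genotype, which leaves out probe sets that fell short of it in any genotype. The rule sets no upper limit, and the changes of 30 members lay at least 1 apart. The comparisons with Col-0 share the Col-0 arrays, and each is given by its own values. Of the 89 members, 56 were called in none of the 3 differences of response (62.9%, against 76.9% of all probe sets), among them 29 of the 39 named genes. The other 33 were called in at least 1, as were 23.1% of all probe sets. A missing call does not show equal responses. The 95% interval of the difference lay within 1 log2 unit of 0 for 32 members between gun1-9 and Col-0, and for 41 in each of the other 2 differences.

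Between gun1-9 and Col-0, 23 of the 89 members were called (25.8%, against 15.3% of all probe sets), 16 with a larger response in gun1-9 (8.07% of all) and 7 with a smaller one (7.21% of all). The median difference was 0.27 over the members and -0.02 over all probe sets. Between gun5 and Col-0, 17 members were called (19.1%, against 16.8% of all), 10 larger in gun5 (8.73% of all) and 7 smaller (8.11% of all), with a median difference of -0.004 over members and -0.02 over all. That share is close to that of all probe sets. With 16 in place of 1 added before the log2, the split was 7 larger and 10 smaller, with the split of all probe sets not given. Between gun1-9 and gun5, 14 were called (15.7%, against 5.46% of all), 12 larger in gun1-9 (2.39% of all) and 2 smaller (3.06% of all), with medians of 0.23 over members and -0.003 over all.

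**Figure D3:**
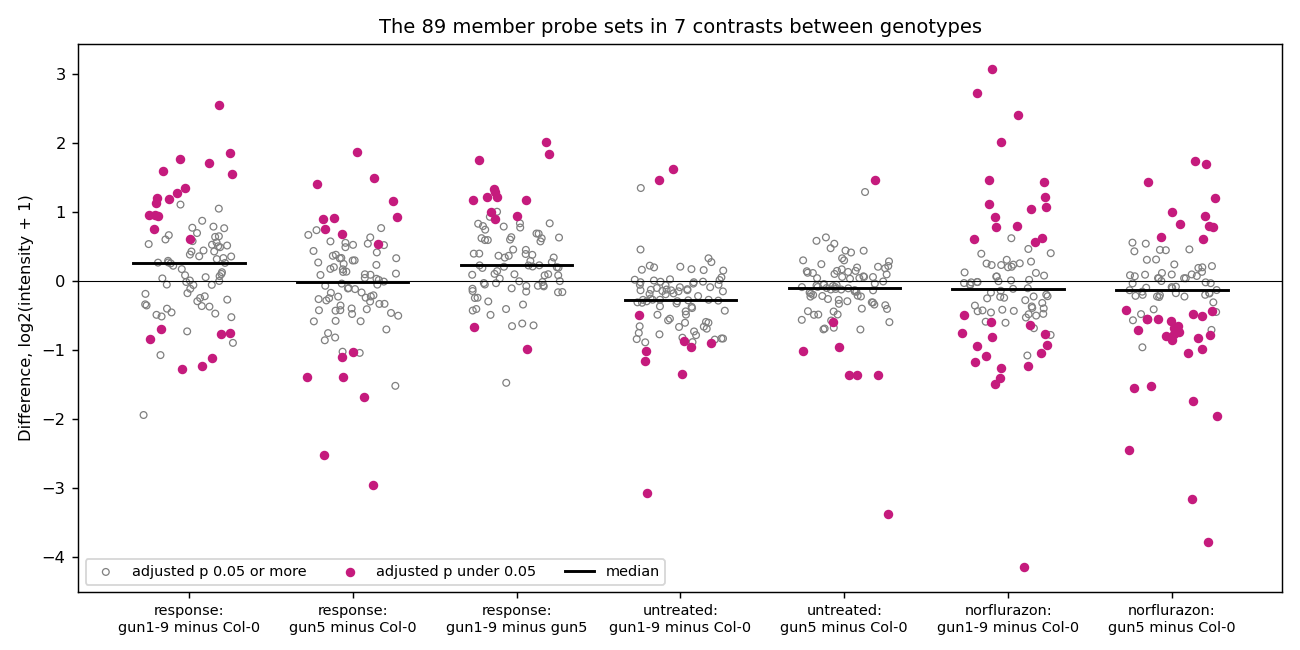
Difference between genotypes (log2(intensity + 1)) of each of the 89 members in 7 contrasts, for the norflurazon response, the untreated level and the level on norflurazon. Filled points had an adjusted p under 0.05 in limma and lines mark medians, which run from -0.27 for untreated gun1-9 minus Col-0 to 0.27 for the response of gun1-9 minus Col-0.

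The MATE transporter gene AT2G04050 had, among the named members, the largest excess of the gun1-9 response over that of Col-0, 1.86 ± 0.29 SE (adjusted p = 0.000172). Against gun5 the response of gun1-9 was larger by 1.22 ± 0.29 SE (adjusted p = 0.017), and the difference between gun5 and Col-0, 0.64, was not called (adjusted p = 0.155). Untreated levels did not differ by a call (0.16 in gun1-9 and 0.15 in gun5, relative to Col-0). On norflurazon AT2G04050 was higher than in Col-0 by 2.02 for gun1-9 (adjusted p = 7.26e-07) and by 0.79 for gun5 (adjusted p = 0.00758).

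AT5G43450 encodes a dioxygenase that, like the ACC oxidases, uses iron. On norflurazon, AT5G43450 had intensities of 647, 422 and 530.3 in gun1-9, against 47.4, 34.1 and 42.2 in its untreated seedlings. Treated gun5 had 322, 330.2 and 243, against 61.3, 37.5 and 43.7 in untreated gun5. The Col-0 arrays gave 202, 200.2 and 179 on norflurazon, against 32.1, 55.6 and 49.1 without it. Untreated groups overlapped, while treated gun1-9 was the highest group and treated Col-0 the lowest. The response of gun1-9 exceeded that of Col-0 by 1.55 ± 0.30 SE (adjusted p = 0.00143), and for gun5 the difference was 0.55, without a call (adjusted p = 0.256). AT5G17760, the AAA-type ATPase gene, responded more in gun1-9 than in Col-0, by 0.97 ± 0.23 SE (adjusted p = 0.00771). On norflurazon it was higher than in Col-0 by 1.12 in gun1-9 and 1.01 in gun5 (adjusted p = 5.76e-05 and 0.000159). AT1G22890 had a difference of 0.95 between gun1-9 and Col-0 (adjusted p = 0.0192), with a difference in untreated level of -0.83 and in treated level of 0.12, neither called.

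Smaller responses in both mutants were called for AT1G17960 and AT3G45730. For the threonyl-tRNA synthetase gene AT1G17960 gun1-9 differed from Col-0 by -0.75 ± 0.22 SE, with an adjusted p of 0.03. For gun5 the difference was -1.39 ± 0.22 SE, with an adjusted p of 0.000232. Intensities of AT3G45730 were 35.8, 37.8 and 41.0 in treated gun1-9, against 8.28, 9.06 and 8.95 in untreated gun1-9. For gun5, 26.8, 49.4 and 29.8 on treated arrays stood against 8.46, 11.1 and 12.5 on untreated arrays. Values of Col-0 were 103, 95.9 and 107 with norflurazon, against 10.2, 8.0 and 10.9 without. Treated Col-0 arrays of AT3G45730 were at least 95.9 and no treated mutant array was above 49.4, while the untreated groups overlapped. Relative to Col-0, the response of AT3G45730 differed by -1.27 ± 0.25 SE in gun1-9, with an adjusted p of 0.00179. In gun5 the value was -1.67 ± 0.25 SE, with an adjusted p of 0.000118. AT1G13670 had a smaller response in gun1-9 than in Col-0 (-0.76, adjusted p = 0.0381).

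The bHLH gene AT2G43140 was higher in treated gun5 than in treated Col-0 by 1.70 (adjusted p = 7.13e-07). Its response was larger in gun5 than in Col-0 by 1.41 ± 0.24 SE (adjusted p = 0.000454) and smaller in gun1-9 than in gun5 (difference -0.98 ± 0.24 SE, adjusted p = 0.0238). AT3G10020, a gene known from oxygen-starved plants, had a called difference of untreated level. In gun1-9, AT3G10020 read 319, 444 and 374 on norflurazon, against 49.4, 59.1 and 75.5 without it. In gun5 they were 210.4, 339 and 301 on norflurazon, against 32.8, 35.0 and 61.0 without it. Col-0 seedlings had 242, 303 and 441 when treated, against 105, 88.4 and 133 when untreated. Treated groups overlapped, and the untreated arrays of gun1-9 and gun5 were all below those of Col-0. In gun1-9 the untreated level was -0.82 relative to Col-0 (adjusted p = 0.238), without a call. The untreated level in gun5 was -1.36 ± 0.26 SE relative to Col-0 (adjusted p = 0.012), the level on norflurazon -0.20 (adjusted p = 0.645) and the difference of response 1.16 ± 0.37 SE (adjusted p = 0.0381). For the pectin methylesterase gene AT2G47550, the response of gun1-9 was larger than that of gun5 by 1.18 ± 0.27 SE (adjusted p = 0.0126).

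**Figure D4:**
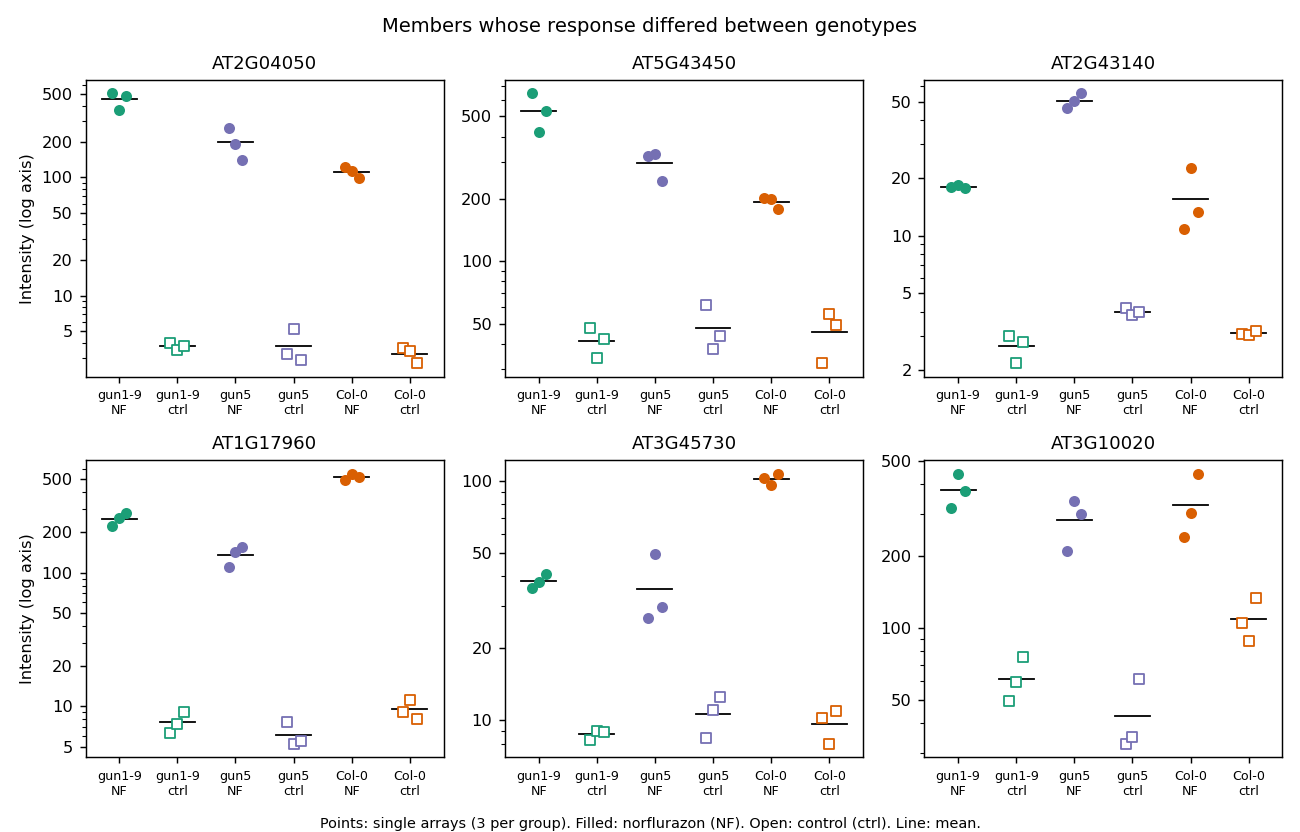
Intensity (log axis) on each array of 6 named members whose response differed between genotypes, with norflurazon (filled) and control (open) side by side for gun1-9, gun5 and Col-0 and a line at each group mean. AT2G04050 was highest in treated gun1-9, AT2G43140 in treated gun5, and AT1G17960 and AT3G45730 in treated Col-0, while AT3G10020 was lowest in untreated gun5.

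Among members without a gene name, 247655_at exceeded all others in the gun1-9 response minus the Col-0 response (2.55 ± 0.26 SE, adjusted p = 1.86e-06). The treated gun1-9 arrays gave 212, 219.6 and 205 for this probe set, against 9.42, 12.2 and 13.5 on the untreated ones. Treated gun5 had 55.5, 81.1 and 98.1, against 17.5, 16.3 and 19.0 in untreated gun5. Treated Col-0 had 41.8, 35.6 and 40.1, against 12.2, 10.3 and 17.0 in untreated Col-0. Treated gun1-9 arrays were all at least 204.9, and no other array of this probe set was above 98.1. The most negative difference of response between gun5 and Col-0 was that of 256459_at, -2.95 ± 0.32 SE (adjusted p = 2.97e-06). On norflurazon, 256459_at had intensities of 120.5, 96.8 and 149.8 in gun1-9, against 3.26, 3.91 and 3.31 in its untreated seedlings. The gun5 values were 29.0, 58.7 and 30.2 with norflurazon, against 3.16, 3.97 and 5.25 without. Values of Col-0 were 368, 305 and 346 with norflurazon, against 5.87, 4.69 and 3.98 without. Treated Col-0 was highest, treated gun1-9 next and treated gun5 lowest, without overlap. The largest excess of the gun5 response over that of Col-0 was in 245306_at, 1.87 ± 0.22 SE (adjusted p = 8.84e-06 in limma). Its gun1-9 response exceeded that of Col-0 by 1.77 ± 0.22 SE (adjusted p = 1.82e-05).

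Without norflurazon, 10 of the 89 members were called between gun1-9 and Col-0 (11.2%, against 0.396% of all probe sets), 2 higher in gun1-9 (0.145% of all) and 8 lower (0.251% of all). Between gun5 and Col-0, 8 were called (8.99%, against 1.67% of all), 1 higher in gun5 (0.870% of all) and 7 lower (0.800% of all). The median difference in untreated level was -0.27 for gun1-9 and -0.10 for gun5 over the members, against -0.004 and -0.02 over all probe sets. The count in gun1-9 rests on single arrays: it was 3 without the third untreated Col-0 array, 16 without the second and 6 without the third untreated gun1-9 array. In gun5 it was 3 without the third untreated Col-0 array, and 5, 3 and 5 without untreated gun5 replicates 1, 2 and 3 in turn. Calls over all probe sets in these left-out fits are not given, so the moves need not concern the members alone. Fitted on the untreated arrays of each pair alone, limma called 0 members for gun1-9, with 31 at an unadjusted p under 0.05, where it called 1 of all 22746 probe sets (0.00440%). For gun5 that fit called 4 members and 123 of all probe sets (0.541%).

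AT1G20390, the gene listed as a pseudogene, was lower than in Col-0 in both untreated mutants. The differences were -1.15 ± 0.22 SE for gun1-9 (adjusted p = 0.0296 in limma) and -0.96 ± 0.22 SE for gun5 (adjusted p = 0.0331). The call was lost in 7 of 25 alternative fits for gun5 and in 6 of 25 for gun1-9. For gun1-9, the fit to untreated gun1-9 and Col-0 arrays alone was among those that lost it. Intensities of AT1G20390 were 149, 136 and 180.2 in treated gun1-9, against 16.5, 13.6 and 27.6 in untreated gun1-9. In gun5 they were 161, 171 and 166 on norflurazon, against 23.2, 22.6 and 18.1 without it. The Col-0 arrays gave 296, 244 and 348 on norflurazon, against 54.2, 32.4 and 42.2 without it. Every untreated Col-0 array was above all untreated mutant arrays. On norflurazon its level was also lower, with differences of -0.92 in gun1-9 (adjusted p = 0.00431) and -0.82 in gun5 (adjusted p = 0.009), and its differences of response, 0.23 and 0.14, were not called. The largest differences of untreated level were those of 250868_at, which has no gene name here. In gun1-9, 250868_at read 33.5, 51.6 and 31.0 on norflurazon, against 15.4, 6.27 and 12.6 without it. Treated gun5 had 77.5, 37.3 and 39.3, against 7.0, 8.10 and 11.0 in untreated gun5. Treated Col-0 had 720.1, 738 and 598, against 219.6, 41.3 and 102 in untreated Col-0. All Col-0 arrays exceeded the mutant arrays of the same treatment. Against Col-0, the untreated difference was -3.07 ± 0.45 SE for gun1-9 (adjusted p = 0.00582 in limma). For gun5 it was -3.37 ± 0.45 SE (adjusted p = 0.0009). Fitted on the untreated arrays of the pair alone, the gun1-9 difference was not called. The untreated Col-0 arrays of both 250868_at and AT1G20390 had the order seen for ICL, with replicate 1 highest and replicate 2 lowest. The part of that shared order in these results was not tested.

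On norflurazon, 32 members were called between gun1-9 and Col-0 (36.0%, against 22.6% of all probe sets), 16 higher (10.3% of all) and 16 lower (12.3% of all). Between gun5 and Col-0, 37 were called (41.6%, against 27.5% of all), 11 higher (10.9% of all) and 26 lower (16.6% of all). After centring of the arrays on their medians, the gun5 split was 12 higher and 18 lower, with the split of all probe sets not given. Among named members not yet given, AT1G33790, the lectin gene, was lower than in Col-0 in treated gun1-9 (-0.94, adjusted p = 0.0355) and treated gun5 (-1.74, adjusted p = 0.000369). AT5G48110 had -0.77 in both, with adjusted p of 0.0491 for gun1-9 and 0.0408 for gun5. AT1G56680, of the chitinase family, had -0.79 in gun5 (adjusted p = 0.0286). AT3G50560 was higher than in Col-0 by 0.81 in gun1-9 and 0.82 in gun5 (adjusted p = 0.0234 and 0.018).

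Genes of related pathways were taken from 12 lists of 198 genes, of which 53 had a probe set of their own and 6 were members. Genes outside the members had a change under 1.5 in at least 1 genotype, unless removed by name. Among probe sets of the whole table, 20.5% were called higher on norflurazon and 15.7% lower in gun1-9, 15.7% higher and 13.2% lower in gun5, and 24.2% higher and 15.1% lower in Col-0. The mitochondrial stress list had 13 of 27 genes measured. Members among them were AT2G04050, AT5G43450 and AT2G32020, and 3 others were those removed by name. Of the 7 list genes outside these, 5 rose in gun1-9 (median log2 change 0.63), 0 were called in gun5 (median 0.11) and 1 rose in Col-0 (median 0.18). AT5G09570, a small mitochondrial protein with cysteine motifs, rose by 2.04 ± 0.20 SE in gun1-9, with 0.35 in gun5 and 0.24 in Col-0 not called. Its response in gun1-9 exceeded that in Col-0 by 1.81 ± 0.29 SE (adjusted p = 0.000243) and that in gun5 by 1.69 (adjusted p = 0.00153). AT5G14730 had a change of 2.52 in gun1-9, against 0.25 in gun5 and 0.18 in Col-0, with a difference of 2.34 between gun1-9 and Col-0 (adjusted p = 2.14e-05) and of 2.26 between gun1-9 and gun5 (adjusted p = 0.000126).

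The list of carbon starvation and amino acid breakdown held 19 genes, 7 of them measured, with MCCA and GAT1_2.1 as members. Of its 6 other probe sets, 4 rose in gun1-9 (median log2 change 0.89), 4 in gun5 (1.01) and 5 in Col-0 (0.97), and none fell. MCCB, the partner subunit of MCCA, rose by 0.60 in gun1-9, 0.90 in gun5 and 0.87 in Col-0. IVD, isovaleryl-CoA dehydrogenase, which acts before MCCA in leucine breakdown, rose by 1.89 in gun1-9, 1.88 in gun5 and 1.42 in Col-0 (adjusted p of at most 3.66e-06 in limma). AKINBETA1, a subunit of the SnRK1 kinase complex that senses low energy, rose by 1.32, 1.55 and 1.06 in that order. PPDK, pyruvate orthophosphate dikinase, rose by 1.18 in gun1-9, 1.12 in gun5 and 2.38 in Col-0, and its response was smaller than in Col-0 in both mutants, with differences of -1.20 for gun1-9 (adjusted p = 0.00496) and -1.26 for gun5 (adjusted p = 0.00311). The second GAT1_2.1 probe set was not called in any genotype, and BZIP53, a transcription factor, rose by 0.27 in Col-0 and had 0.07 in gun1-9 and 0.05 in gun5 without a call.

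No measured gene of the heat shock list (7 of 19) was a member. All 7 rose in gun1-9 (median log2 change 1.72), 4 in gun5 (1.00), and in Col-0 2 rose and 1 fell (0.21). AT2G29500, a small heat shock protein gene, rose by 2.10 in gun1-9 and fell in Col-0 (-0.69), with -0.09 in gun5 not called, and its response was larger in gun1-9 than in Col-0 by 2.78 ± 0.32 SE (adjusted p = 6.69e-06). AT5G48570, an FKBP-type immunophilin gene, rose by 2.49 in gun1-9 and 2.00 in gun5, with 0.62 in Col-0 not called. Fes1A, an HSP70 cofactor, rose by 2.06, 1.31 and 1.11 in gun1-9, gun5 and Col-0.

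Of the detoxification transporter list (6 of 17 measured), AT2G04050 was a member. Of the 5 others, 3 rose and 1 fell in gun1-9, 1 rose and 1 fell in gun5, and 3 rose and 1 fell in Col-0. AT1G66760, a MATE family gene, rose by 1.35 in gun1-9, 2.10 in gun5 and 2.05 in Col-0, and AT2G04070, another gene of that family, rose by 0.39 in gun1-9, with 0.10 and 0.06 not called. The ethylene list had 1 of 14 genes measured, AT1G12010 itself. Of 9 measured tau glutathione transferase genes (25 on the list), 2 rose and 3 fell in gun1-9, 2 rose and 2 fell in gun5, and 2 rose and 4 fell in Col-0. Of 3 measured genes of the unfolded protein response (12 on the list), 1 rose in gun1-9, 1 in gun5 and 3 in Col-0, with BZIP60 rising by 0.96, 0.67 and 1.20. Of the 2 measured oxidative stress genes not removed by name (18 on the list), STZ had 1.49 in gun1-9, 0.08 in gun5 and 1.35 in Col-0 and MSRB9 -0.12, -0.12 and 0.01, without a call. Of 3 measured abscisic acid genes (13 on the list), COR15A fell in all genotypes (-0.72, -1.05 and -1.13), and COR15B in gun5 and Col-0. PDF1.2, measured of the 14 jasmonate and salicylate genes, had -0.22, -0.24 and -0.44, not called.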

How the data were processed

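Biotin-labelled total RNA went onto Affymetrix arrays, per the labels' protocols. The authors deposited 1 table of linear intensity values per probe set and array. Per the submitters' processing notes, GCRMA and MAS5 were used, without a stated role, and array medians of the deposited intensities differed little. A background step, where one was used, acts most on dim probe sets. Scaling arrays to each other presumes that few transcripts change. All 18 columns were used. The 64 control probe sets among 22810 were not tested.

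Members, gene lists and roles were chosen with earlier results of these data known. Values were transformed to log2(intensity + 1). The fit was made with limma 3.58.1 in R 4.3.3 (6 group means over all 18 arrays, eBayes, prior degrees of freedom 4.48, 2-sided contrasts, Benjamini-Hochberg adjustment over all 22746 probe sets, calls under 0.05). Tests of members were limited to contrasts other than those of the rule, but built from the same group means. Figures were drawn with matplotlib 3.10.9. The platform annotation names 1 gene for 13513 probe sets, several for 503 and none for 8730. Symbols came from a reference table of assembly TAIR10.1, which held all 39 member genes. No coordinates or sequences are given, since the values name no genome build. Genes named in the text were the 20 leading named members, those nearest the threshold, those with symbols, the 5 largest calls per direction and contrast, and list genes.

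On simulated arrays with these spreads (22746 probe sets, effects in treated gun1-9), limma called 67% of probe sets changed by 1 log2 unit and 93% of those changed by 2 in the gun1-9 response minus the Col-0 response. Effects were placed only in probe sets with a mean above the first quartile. Members had larger spreads (median SD of log2 in untreated gun1-9 of 0.251, against 0.142 for all), and the rate for members was not measured. Alternatives were quantile normalization, centring on array medians, a constant of 16, no dim probe sets, trend and robust moderation, the replicate number as a block, fits to the compared groups alone, each array left out, and thresholds of 1 and 2.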

Additional observations from a re-analysis of the deposited data

Results flagged for a closer look

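The difference of response was tested in limma with Benjamini-Hochberg adjustment over all probe sets. Calls numbered 23 of 89 members between gun1-9 and Col-0 (25.8%, against 15.3% of all probe sets). They numbered 17 between gun5 and Col-0 (19.1%, against 16.8%) and 14 between gun1-9 and gun5 (15.7%, against 5.46%). The share for gun5 and Col-0 is close to that of all probe sets. These differences are built from the changes that chose the members, so counts and shares are a description.

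Between gun1-9 and Col-0, the log2 difference of response was 1.86 for the MATE transporter gene AT2G04050, 1.55 for the oxygenase gene AT5G43450, 0.97 for the AAA-type ATPase gene AT5G17760 and 0.95 for AT1G22890. It was -1.27 for AT3G45730, -0.76 for AT1G13670 and -0.75 for the threonyl-tRNA synthetase gene AT1G17960.

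Between gun5 and Col-0, the difference among named members was 1.41 for the bHLH gene AT2G43140 and 1.16 for AT3G10020, and -1.67 for AT3G45730 and -1.39 for AT1G17960. Between gun1-9 and gun5, it was 1.22 for AT2G04050, 1.18 for the pectin methylesterase gene AT2G47550 and -0.98 for AT2G43140.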

How the results depend on the processing

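The number of members moved with the constant and the threshold: it was 40 with log2(intensity + 16), 291 at a threshold of 1 and 34 at a threshold of 2, against 89. With 1 array left out it was 82 to 92. For the difference of response, leaving out 1 array gave 18 to 26 called members between gun1-9 and Col-0, 12 to 18 between gun5 and Col-0 and 10 to 16 between gun1-9 and gun5. For treated levels it gave 26 to 34 in gun1-9 and 27 to 39 in gun5, and for untreated levels 3 to 16 in gun1-9 and 3 to 10 in gun5. Untreated calls were the least stable: with only the arrays compared they numbered 0 in gun1-9 and 4 in gun5, where calls over all probe sets numbered 1 and 123 in place of 90 and 380, and with log2(intensity + 16) 4 in gun5. The cause was not tested. Deviations of same-numbered arrays were weakly correlated (45 pairs, r of -0.113 to 0.19, with 7 over 0.1), and most of these r were above 0. The main fit treats the arrays as unpaired. With a replicate block the counts were 24, 20 and 14 for the differences of response (gun1-9 and Col-0, gun5 and Col-0, gun1-9 and gun5). Untreated counts were 11 for gun1-9 and 8 for gun5, and treated counts 33 and 40. Calls over all probe sets also move with the setting and are not given for the left-out arrays or the block. Whether a moved count concerns the members in particular was not tested. For 36 results of named genes under 25 alternatives each, 805 of 900 comparisons kept their call, 95 lost it and 0 changed direction. The 36 were the largest calls of the main fit. Many alternatives leave out an array that is not in the comparison, which cannot move the difference, so the share kept is high by construction. AT5G48110 in treated gun1-9 lost its call in 14 alternatives, and the responses of AT1G13670 and AT3G10020 in 10 each. Leaving out members with a dim untreated mean, and leaving out the exclusions by name, were chosen after seeing the data.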
